A study of Rattus norvegicus with 13 samples.

Results

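The 7 genes described here are Pth, Casr, Gcm2, Gata3, Vdr, Trpc1 and Rgs5, out of 36174 gene names on the array, and they are read by 11 of its 45598 gene probes. The members were named by gene symbol and every probe carrying one of these symbols was kept. The genes were chosen by their known roles and on measured values of the same arrays, among them the difference between the KI-treated and control groups, so that difference is given below as a description without a p-value of its own. The thyroids came from 13 male Wistar rats whose mothers had received during pregnancy either potassium iodide (KI) at 1 mg/kg/day or saline, each given by gavage on 8 days that began at gestational day 9. The KI-treated group held 6 animals and the control group 7, and the tissue was collected 30 days after weaning. Each array measured the thyroid of 1 animal, the litter of each animal is not given in the sources used here, and p-values therefore measure the spread between these animals only.

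The parathyroid glands lie on or within the thyroid lobes, so that a thyroid taken whole carries their RNA. Their chief cells release parathyroid hormone (Pth) when blood calcium falls. The calcium-sensing receptor (Casr) on the same cells reads blood calcium and holds the hormone back when calcium is high, and the vitamin D receptor (Vdr) lowers transcription of the hormone gene. Gcm2 is the transcription factor that the parathyroid needs in order to form and persist, and Gata3, a zinc-finger factor also used by T cells, acts with it. Trpc1 is a cation channel subunit, and Rgs5 shortens signalling by G-protein-coupled receptors and is widely known as a pericyte gene. Gcm2 and Pth are specific to the parathyroid among these genes, whereas Trpc1, Rgs5, Vdr and Gata3 are made by other cells as well. The comparison asks whether the genes rose and fell together between animals, and which differed between the groups beyond that. In a whole tissue, fewer cells of a type and less RNA per cell cannot be told apart.

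The probes are 60-base oligonucleotides, and their positions are those that the scanner files give for the rat build rn4. The pair of Rgs5 probes is printed because the probes read neighbouring stretches of the same messenger RNA that overlap at their ends, so that their values are not independent. The 9 bases that they share are in capitals. Probe 2 lies at chr13:85480491-85480550 and begins at base 317 of the transcript. Probe 1 begins at base 368 and lies at chr13:85480542-85482176, a genomic span of 1635 bases for a 60-base probe, so that it crosses an intron.
Rgs5 probe 2: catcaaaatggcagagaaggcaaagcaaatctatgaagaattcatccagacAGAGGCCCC
Rgs5 probe 1: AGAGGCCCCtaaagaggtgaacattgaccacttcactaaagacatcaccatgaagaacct

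Gata3 and Trpc1 also have more than 1 probe, and the Trpc1 probes did not run alike. Gata3 probe 1, at chr17:80011340-80011399 and base 1100 of its transcript, is printed because it carries the group difference given below. Gata3 probe 2 lies at chr17:80012949-80013008. Trpc1 probe 3, on the minus strand of chr8:100773649-100773708, starts at base 1966 of the transcript and is printed because it moved against the other Trpc1 probes, which start at bases 3892 (probe 1) and 3445 (probe 2).
Gata3 probe 1: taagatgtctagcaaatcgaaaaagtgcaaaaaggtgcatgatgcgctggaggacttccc
Trpc1 probe 3: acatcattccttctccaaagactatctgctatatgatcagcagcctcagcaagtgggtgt

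Levels are given as log2 of the processed fluorescence signal minus the 75th percentile of the array, so that 1 unit is a doubling, and they are compared between animals for the same probe only. Well above background were 34840 to 41050 of the 58717 gene spots on an array. Of the member probes, 8 were well above background on all 13 arrays, Gata3 probe 2 on 12, Gcm2 on 11 and Trpc1 probe 3 on 10. The arrays lay on 6 slides and in 3 scan sessions, and 5 slides held both groups. The number of arrays limits the precision of every value.

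The tissue was thyroid by its markers, and it held parathyroid and other cells. The mean level of 11 tested markers of thyroid follicular cells, led by Tg (thyroglobulin), ran from 4.07 to 4.33 in the KI-treated group and from 4.07 to 4.32 in controls. The parathyroid markers Pth, Casr, Gcm2, Chga and Tbx1 were all tested. One library stood apart. In KI animal 1 the mean level of 4 tested T cell markers was 1.73, against at most -1.84 in the other 12 animals, and the Gata3 differences, without a covariate and at equal Pth, and the correlations of Gata3 probe 1 with Gcm2 and Vdr are therefore also given without this animal. The mean of 6 skeletal muscle markers ran from -1.82 to 2.20 in KI-treated animals and from 0.40 to 3.95 in controls. The mean of 8 markers of pericytes and vascular smooth muscle ran from 1.15 to 1.65 and from 1.03 to 1.71, that of 8 C cell markers from 1.51 to 2.17 and from 1.60 to 2.34, that of 6 endothelial markers from 2.45 to 2.75 and from 2.42 to 2.68, and that of 6 adipocyte markers from 0.48 to 1.64 and from 0.81 to 1.73.

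Pth, the hormone itself, was nearly level between animals before scaling. Its log2 signal lay between 17.03 in control animal 2 and 17.53 in control animal 5, a range of 0.50 and an SD of 0.13 over 13 arrays. The 75th percentile that is subtracted from it ranged more widely, from 7.92 in control animal 6 to 9.10 in KI animal 4, with an SD of 0.31. The mean of this percentile was 8.81 in the KI-treated group and 8.52 in controls, a difference of 0.29, which enters the scaled group difference of Pth. After scaling, the level of Pth in KI-treated animals was 8.24 at the lowest, 8.57 at the median and 8.69 at the highest. In control animals the lowest was 8.55, the median 8.70 and the highest 9.25. The groups overlapped, and 4 of 7 control animals lay above every KI-treated animal. The highest scaled levels belonged to control animals 6 (9.25) and 4 (9.05), the arrays with the lowest 75th percentiles, and the lowest to KI animal 4, the array with the highest. The scaled level contains the percentile by construction, and how much of the spread in Pth comes from it was not tested.

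**Figure D1:**
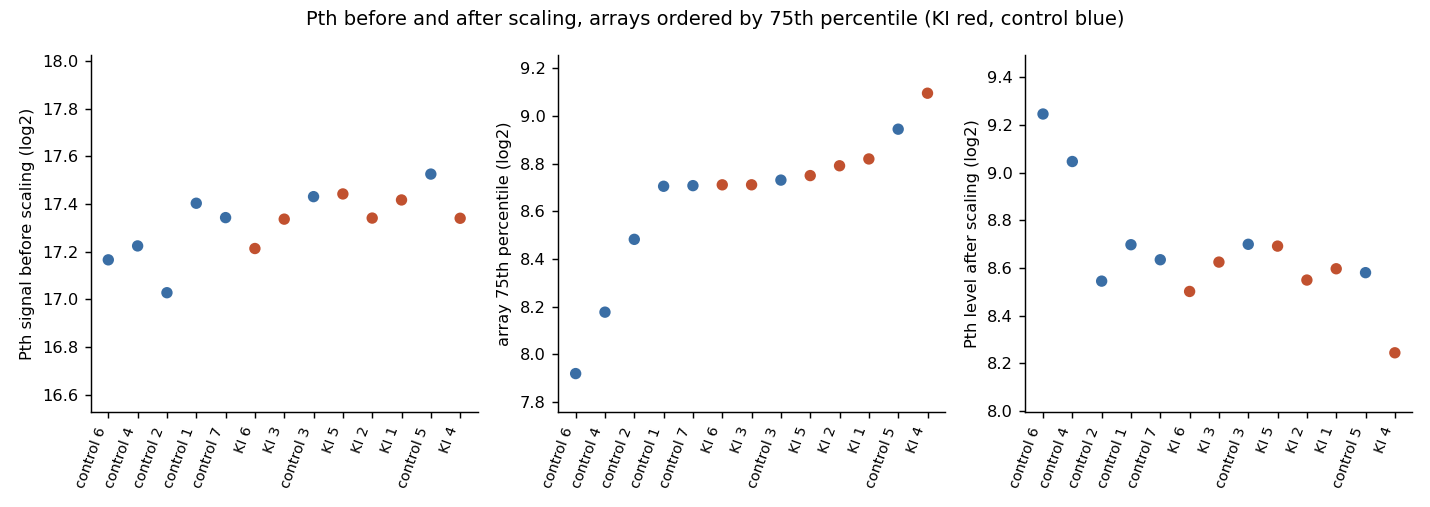
Each point is 1 array, ordered from left to right by its 75th percentile. The panels show the log2 Pth signal before scaling, the log2 75th percentile and the scaled Pth level on axes of equal length, with KI-treated animals in red and controls in blue. The Pth signal spans 0.50 units and the percentile 1.18.

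Casr, the calcium sensor, differed mostly among control animals. In the KI-treated group its lowest level was 5.18, its median 5.34 and its highest 5.54. In controls the lowest was 4.57, the median 5.33 and the highest 5.89. All 6 KI-treated animals lay inside the range of the controls, whose SD was 0.55 against 0.18. Controls 2 and 3 held the lowest levels (4.57 and 4.64) and controls 4 and 6 the highest (5.89 and 5.85).

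Gcm2, the factor that specifies the gland, showed the largest group difference of the 7 genes. Its levels in the KI-treated group were -3.19 at the lowest, -2.25 at the median and -1.84 at the highest. In controls they were -4.68, -3.35 and -2.24. All 6 KI-treated animals lay above the median of the controls and 5 of 7 controls lay below every KI-treated animal, but control animal 1 (-2.24) lay above KI animals 2, 4 and 6. The probe was dim, and it was not well above background in control animals 2 and 6. The group means differed by 1.09 (SE 0.34, 95% interval 0.36 to 1.82), which is 2.13-fold, with an interval from 1.28-fold to 3.54-fold.

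Gata3 leaned the same way as Gcm2. For probe 1 the KI-treated group had a lowest level of -0.96, a median of -0.27 and a highest of 0.01, and the controls had -2.47, -0.91 and -0.23. For probe 2 the values were -2.89, -2.37 and -1.74 against -4.43, -2.57 and -2.14. Control animal 2 was the lowest of all animals in both probes. The group means differed by 0.65 (SE 0.30, interval 0.01 to 1.30) in probe 1 and by 0.54 (SE 0.33, interval -0.15 to 1.24) in probe 2. Without KI animal 1, whose T cell markers were high, the differences were 0.60 and 0.56. Without control animal 2 they were 0.41 and 0.28, so that this 1 animal changed both by more than 1.5 times.

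Vdr, the vitamin D receptor, overlapped almost fully between the groups. It was -1.81 at the lowest, -1.16 at the median and -0.76 at the highest in KI-treated animals, and -2.24, -1.28 and -0.89 in controls. The difference was 0.16 (SE 0.22, interval -0.30 to 0.62), and it was 0.01 without control animal 2, again the lowest of the 13.

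The 3 probes of the channel gene Trpc1 disagreed. Probe 1 was -0.68 at the lowest, -0.44 at the median and -0.26 at the highest in the KI-treated group, and -0.82, -0.19 and 0.33 in controls. Probe 2 was -1.49, -1.22 and -1.06 against -1.36, -1.05 and -0.91. Probe 3, the dim one, was -3.54, -3.22 and -2.83 against -4.64, -3.46 and -3.01. The difference was negative in probes 1 (-0.26, SE 0.17) and 2 (-0.17, SE 0.11) and positive in probe 3 (0.46, SE 0.23), and all 3 intervals held 0. Probes 1 and 2 had r = 0.79 with each other across the 13 animals, and probe 3 had r = -0.65 and -0.38 with them. No single direction can therefore be given for Trpc1.

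The overlapping Rgs5 probes printed above ran together, with r = 0.88. Probe 1 was 0.97 at the lowest, 1.33 at the median and 1.78 at the highest in KI-treated animals, and 0.86, 1.11 and 1.27 in controls. Probe 2 was -0.29, -0.04 and 0.31 against -0.89, -0.38 and -0.08. The highest level of both probes was in KI animal 4. The difference was 0.24 (SE 0.14, interval -0.05 to 0.53) in probe 1 and 0.36 (SE 0.15, interval 0.05 to 0.68) in probe 2. The pericyte marker list, whose ranges are given above, had a median difference of -0.07, and the list's part in the Rgs5 levels was not tested.

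**Figure D2:**
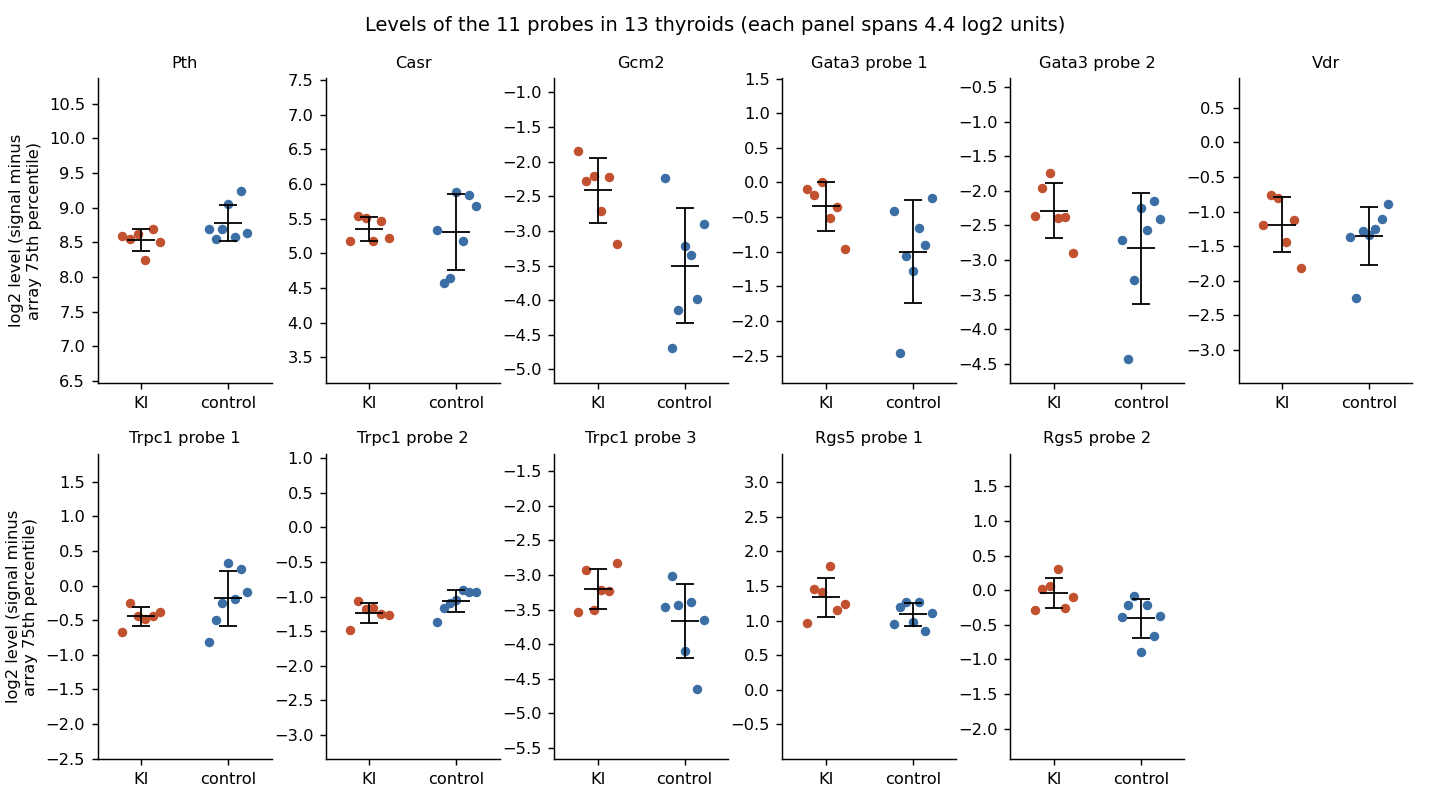
Each panel shows 1 of the 11 probes, with the scaled log2 level on the vertical axis and 1 point for each of 6 KI-treated (red) and 7 control (blue) animals, and bars for the mean and SD. Every panel spans 4.4 log2 units. The Gcm2 panel shows the largest shift between the group means, and control animal 2 is the low point in the Gcm2, Gata3 and Vdr panels.

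Over the whole array, limma with Benjamini-Hochberg adjustment called 0 of 25717 tested probes between the groups (0.00%) at an adjusted p of 0.05. The lowest adjusted value was 0.257. An unadjusted p under 0.05 was found for 3271 probes (12.7%), with 1469 (5.71%) higher and 1802 (7.01%) lower after KI. With the percentile taken over all gene spots instead of averaged probes, that split turned to 1789 higher and 1109 lower of 2898. Of the 11 member probes 0 were called after adjustment and 3 lay under 0.05 without it, namely Gcm2, Gata3 probe 1 and Rgs5 probe 2, all of them higher. Since the members were chosen with this comparison known, nothing is read from that count. Without KI animal 3, KI animal 4 or control animal 6 it was 1. The methods' t-test gave 3142 probes and 2 member probes under 0.05, and 0 after adjustment. The median difference over all tested probes was -0.08, against which the differences above can be read.

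The Gcm2 difference was positive on each of the 5 slides that held both groups, from 0.02 to 2.17, and in each of the 3 scan sessions, from 0.75 to 1.35. Slides 1, 2 and 4 held 1 animal of each group, and the 2.17 came from slide 3, whose only control was animal 2. The members were chosen partly on the group differences, so the values by slide and session are a description and no replication. Gata3 probe 1 was also higher on 5 of 5 slides (0.06 to 1.94), and probe 2 likewise (0.29 to 1.80). Rgs5 probe 2 was higher on 5 of 5 slides and probe 1 on 4. Casr was higher on 3 of 5, and Vdr on 4 of 5. Scaled Pth was lower on 4 of 5 slides and in 3 of 3 sessions, and the percentile subtracted from it had a higher mean in the KI-treated group.

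The size of the Gcm2 difference changed with the background correction and the normalization. It was 0.31 with normexp background correction and 75th percentile scaling, 0.47 with normexp and quantile normalization, and 0.66 in the deposited log2 values, all positive. The Pth difference of -0.24 (SE 0.13, interval -0.53 to 0.04) went to 0.05 under quantile normalization and 0.02 under normexp with quantile normalization, so it has no settled direction.

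At an equal level of Pth, the Gcm2 difference was 1.16 (SE 0.42, interval 0.26 to 2.06), about as large as without the covariate. At an equal level of Casr the Gcm2 difference was 1.06 (SE 0.31, interval 0.38 to 1.73). With a single covariate, the sum of the standardised Pth and Casr levels, it was 1.21 (SE 0.35, interval 0.45 to 1.97). The fit with the sum does not hold the level of either gene equal. Gata3 probe 1 had 0.75 (SE 0.36, interval -0.03 to 1.53) at equal Pth and 0.62 (SE 0.27) at equal Casr. Gata3 probe 2 had 0.93 (SE 0.34) and 0.49 (SE 0.18). At equal Pth the Gata3 differences were 0.69 and 0.97 without KI animal 1, and 0.30 and 0.52 without control animal 2. In contrast, on this scale the Rgs5 differences at equal Pth were 0.07 (SE 0.13) in probe 1 and 0.14 (SE 0.12) in probe 2. Trpc1 probe 3 had 0.06 (SE 0.17). At equal Casr these 3 probes had 0.25, 0.38 and 0.49. With the sum of Pth and Casr as covariate they had 0.18, 0.26 (interval 0.035 to 0.485) and 0.28. Across the other processing settings the equal-Pth differences ran from 0.003 to 0.35 in Rgs5 probe 1 and from 0.015 to 0.39 in probe 2. They ran from -0.14 to 0.62 in Trpc1 probe 3 and from 0.44 to 1.48 in Gcm2. The scaled Pth level contains the subtracted percentile, whose part in this contrast was not tested. Casr itself had 0.35 (SE 0.20) at equal Pth, and Vdr 0.33 (SE 0.24). After adjustment over all probes 0 of 10 member probes were called at equal Pth (background 0.00%). Without adjustment 2 lay under 0.05, Gcm2 and Gata3 probe 2, beside 6.19% of all probes. At equal Casr 6 lay under 0.05 without adjustment, beside 22% of all probes (0.00389% after adjustment, none a member). With the sum as covariate 4 did, beside 11.5%. These counts concern the same difference on which the members were partly chosen, and nothing is read from them either. Without control animal 2 the count at equal Pth was 0, with a Gcm2 difference of 0.80, and without control animal 7 it was 4.

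**Figure D3:**
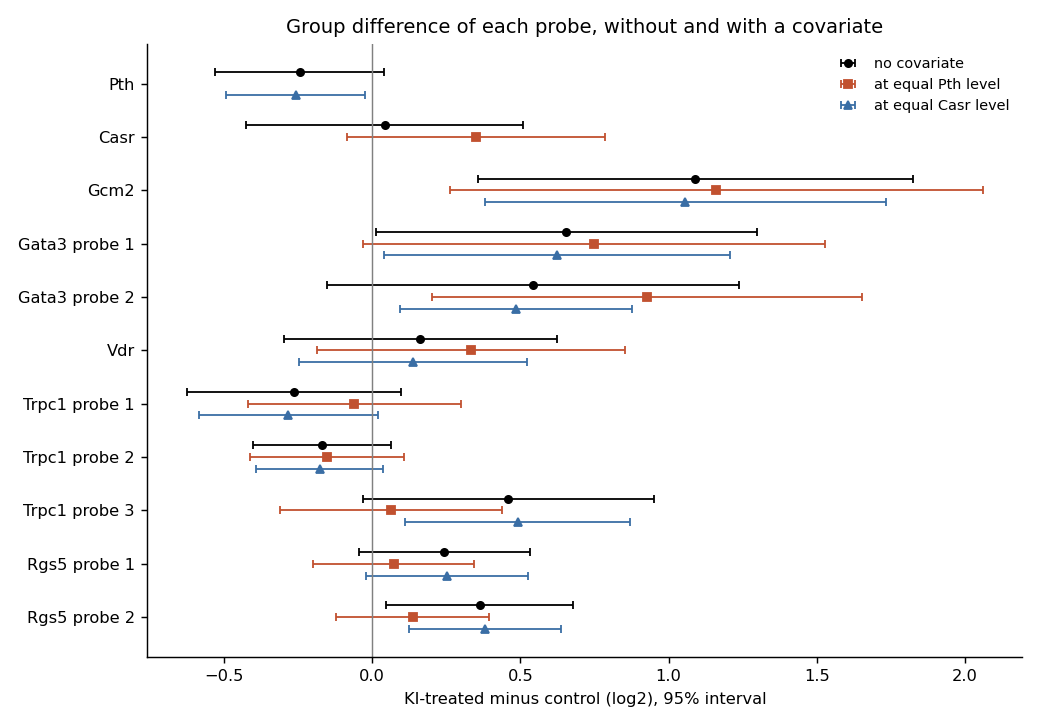
The horizontal axis is the difference of KI-treated minus control on the log2 scale, with its 95% interval, for each of the 11 probes without a covariate (circles), at equal Pth level (squares) and at equal Casr level (triangles). On the percentile-scaled levels shown, Gcm2 lies near 1 in all 3, while Rgs5 and Trpc1 probe 3 lie near 0 at equal Pth only. Under other processing settings the equal-Pth differences changed, as given in the text.

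The genes did not rise and fall as 1 group. Over the 13 animals, with the brightest probe of each gene, 21 pairs were computed, each with Pearson's r, Spearman's rho and 100000 two-sided permutations. Gcm2 and Gata3 held the closest pair, with r = 0.86 (permutation p = 9e-05) and rho = 0.87 (permutation p = 2e-04). Within the KI-treated group r was 0.92 (n = 6, exact permutation p = 0.0125) and within the controls 0.79 (n = 7, exact permutation p = 0.0302). Without controls 2 and 3, the animals farthest from the median of Gcm2, r was 0.78, and without KI animal 1 it was 0.85. Only 0.0272% of all tested probes had an r with Gcm2 as high as Gata3 probe 1, though the slope of Gata3 on Gcm2 had an adjusted p of 0.127 over all probes in limma. Both genes carried the group difference on which the members were partly chosen. The p-values over all 13 animals and this share are therefore not independent of that choice.

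Gata3 and Vdr also moved together, with r = 0.83 (permutation p = 0.00139) and rho = 0.72 (permutation p = 0.00745). Within the groups r was 0.90 in the KI-treated animals (n = 6, exact permutation p = 0.0139) and 0.90 in the controls (n = 7, exact permutation p = 0.0216). Without controls 2 and 4, farthest from the median of Gata3, it was 0.64, and without KI animal 1 it was 0.85. Gata3 probe 2 gave r = 0.85 with Vdr.

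Casr had r = 0.62 with Vdr (permutation p = 0.0223) and rho = 0.59 (permutation p = 0.0362), and without controls 2 and 3 r was 0.44. With Gata3 probe 2 it had r = 0.81 (permutation p = 0.0006) and rho = 0.69, but with Gata3 probe 1 only 0.47 (permutation p = 0.104). With Gcm2 it had r = 0.41 (permutation p = 0.159), and the animals did not lie on a line. Controls 2 and 3 were low in both genes, whereas controls 4 and 6 were highest in Casr and stood at -3.22 and -3.98 in Gcm2. Without controls 2 and 3 the r of Casr with Gcm2 was -0.41, and without controls 4 and 6 it was 0.79. The pair therefore rests on which control animals are counted. The slope on Casr was called for 44 of 25716 probes (0.171%), none of them a member probe, and the adjusted p of Gata3 probe 2 was 0.0720 in limma.

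**Figure D4:**
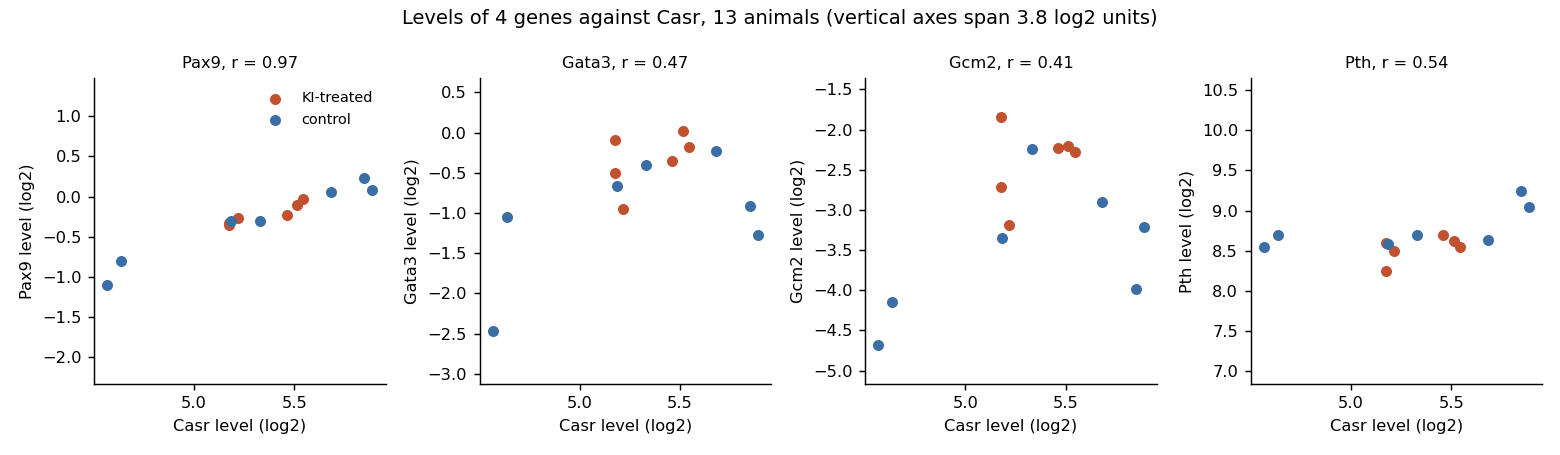
Each point is 1 of 13 animals (KI-treated red, control blue), with the Casr level on the horizontal axis and the level of Pax9, Gata3, Gcm2 or Pth on the vertical axis, all on the scaled log2 scale with vertical axes of 3.8 units. Pax9 lies close to a line, Gcm2 is low at both ends of the Casr range, and Pth is nearly flat except in the controls with the highest Casr.

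On this scale the correlations of Pth with Gcm2, Gata3 and Vdr were low, and those with Gcm2 and Gata3 turned positive under quantile normalization (0.46 and 0.57). Its r with Gata3 was -0.16 (permutation p = 0.571, rho = -0.10, permutation p = 0.735), with Gcm2 -0.27 (permutation p = 0.374, rho = -0.11, permutation p = 0.722) and with Vdr 0.21 (permutation p = 0.466, rho = 0.31, permutation p = 0.297). Its r with Casr was 0.54 (permutation p = 0.0526, rho = 0.53, permutation p = 0.0632), and 28.7% of all tested probes had as high an r. Without controls 6 and 4, the animals farthest from the median of Pth, the r with Casr was 0.08.

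Rgs5 fell where scaled Pth rose. Probe 1 had r = -0.76 with Pth (permutation p = 0.00303) and rho = -0.63 (permutation p = 0.0254). Within the KI-treated group r was -0.77 (n = 6, exact permutation p = 0.0819), within the controls -0.79 (n = 7, exact permutation p = 0.0282), and without controls 6 and 4 it was -0.76. The slope was -0.78 log2 units of Rgs5 per unit of Pth (SE 0.22, interval -1.25 to -0.30, adjusted p = 0.0201 over all probes in limma). Probe 2 had r = -0.86 and Trpc1 probe 3 likewise -0.86. Trpc1 probe 1 went the other way, with r = 0.68 (permutation p = 0.0119) and rho = 0.44 (permutation p = 0.135), but without controls 6 and 4 its r was -0.0046. Slopes on Pth were called for 8181 of 25716 probes (31.8%), 4941 positive (19.2%) and 3240 negative (12.6%), so that a called slope is common. Among the 10 other member probes 4 were called, 1 positive (Trpc1 probe 1) and 3 negative (both Rgs5 probes and Trpc1 probe 3). Each of these relations shares the subtracted 75th percentile, whose part was not tested. Under quantile normalization, which does not subtract it, the r of Pth with Rgs5 was -0.25 and that with Trpc1 was -0.34.

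**Figure D5:**
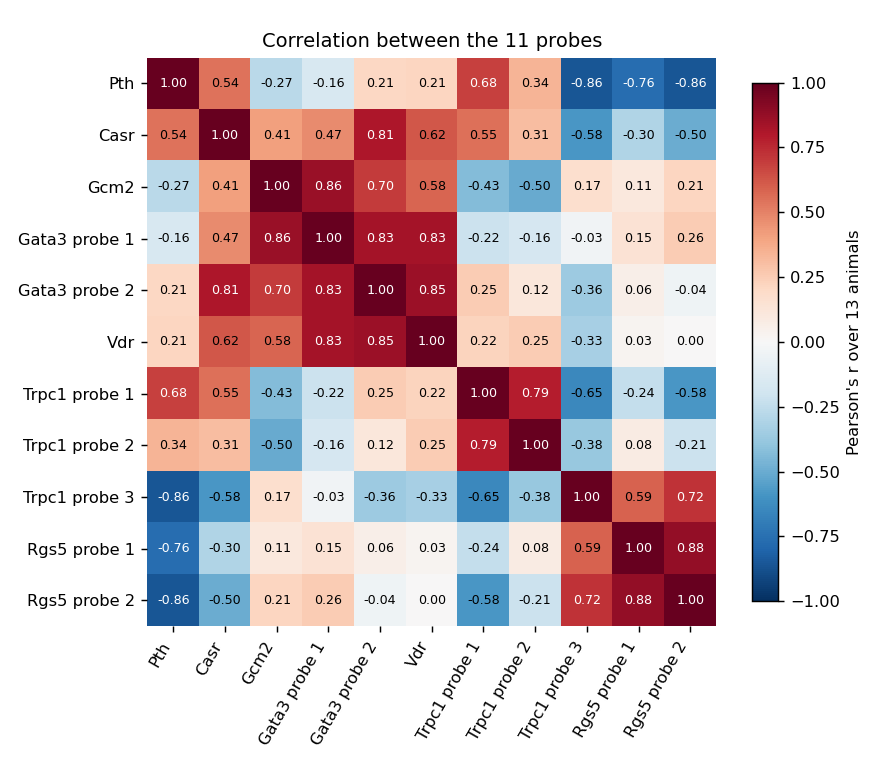
Each cell gives Pearson's r over the 13 animals for a pair of the 11 probes, from -1 (blue) to 1 (red). Gcm2, both Gata3 probes and Vdr had r from 0.58 to 0.86 with each other. The lowest was Gcm2 with Vdr, with rho = 0.42, and its r was 0.28 without controls 2 and 3. Casr had r = 0.81 with Gata3 probe 2 and 0.62 with Vdr. Pth runs against Rgs5 and Trpc1 probe 3 with r from -0.86 to -0.76.

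Promoter sequences are shown for Casr, Gata3 and Vdr, whose correlations across animals are given above, and for Pth. RefSeq, build GRCr8, gave a window of 250 bases before to 50 after the gene's start for 5 of the 7 genes. They were searched on both strands for 4 GATA words, namely the word AGATAA with its variant ending in G, AGATAG, and the word TGATAA with its variant ending in G, TGATAG. Matches are in capitals. The search also covered the Gcm octamer ATGCGGGT and its variant ATACGGGT. A GATA word stands in 30.3% and a Gcm octamer in 0.376% of all 33469 promoter windows. Pth has 1 GATA word, which begins at -142 and is read on the opposite strand, and Gata3 has 1, at 27 after the start. Casr, Vdr and Rgs5 hold no GATA word, and none of the 5 windows holds a Gcm octamer. A match is a description of the letters only. The windows lie at chr11:77740364-77740663 on the plus strand (Casr), chr17:73553298-73553597 on the plus strand (Gata3), chr7:130916708-130917007 on the minus strand (Vdr) and chr1:176945985-176946284 on the minus strand (Pth).
Casr: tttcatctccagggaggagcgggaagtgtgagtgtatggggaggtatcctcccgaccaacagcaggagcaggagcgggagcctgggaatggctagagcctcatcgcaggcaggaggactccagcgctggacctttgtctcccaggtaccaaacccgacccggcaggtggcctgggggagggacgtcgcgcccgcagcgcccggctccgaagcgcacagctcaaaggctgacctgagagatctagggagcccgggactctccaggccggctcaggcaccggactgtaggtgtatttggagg
Gata3: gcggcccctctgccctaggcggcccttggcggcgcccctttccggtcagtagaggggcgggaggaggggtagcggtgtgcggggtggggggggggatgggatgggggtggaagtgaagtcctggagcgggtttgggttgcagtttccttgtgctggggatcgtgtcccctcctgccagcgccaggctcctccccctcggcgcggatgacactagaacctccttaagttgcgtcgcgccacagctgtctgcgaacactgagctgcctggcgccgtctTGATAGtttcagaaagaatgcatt
Vdr: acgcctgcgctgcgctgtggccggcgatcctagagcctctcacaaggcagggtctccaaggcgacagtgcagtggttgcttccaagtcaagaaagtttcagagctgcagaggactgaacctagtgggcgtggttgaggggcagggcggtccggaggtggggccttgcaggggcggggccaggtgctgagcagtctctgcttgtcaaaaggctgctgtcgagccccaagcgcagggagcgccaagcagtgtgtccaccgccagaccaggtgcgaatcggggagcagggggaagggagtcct
Pth: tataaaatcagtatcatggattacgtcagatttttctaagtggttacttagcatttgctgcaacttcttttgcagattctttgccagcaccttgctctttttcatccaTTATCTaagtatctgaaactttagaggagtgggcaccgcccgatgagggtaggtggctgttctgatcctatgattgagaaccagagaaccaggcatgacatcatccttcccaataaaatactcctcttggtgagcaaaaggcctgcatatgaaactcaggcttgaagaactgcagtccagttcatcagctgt

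Other genes of parathyroid development and of the chief cell were taken from a list of 17, of which 15 were on the array and 14 were tested. Between the groups 0 were called after adjustment, while without adjustment 2 were higher and 1 lower, beside 5.71% and 7.01% of all probes. The median difference of the list was 0.24, against -0.08 over all tested probes. Chga, the chromogranin of secretory granules, was 5.56 to 6.43 in KI-treated animals and 4.22 to 5.99 in controls, a difference of 0.58 (SE 0.25, adjusted p = 0.385 in limma). Ccnd1, a cyclin overexpressed in some parathyroid adenomas, differed by 0.46 (SE 0.17, adjusted p = 0.358 in limma) in its brighter probe and by 0.16 (SE 0.16) in the other. Pvalb, which parathyroid and fast muscle share, differed by -2.20 (SE 0.83, adjusted p = 0.363 in limma), beside muscle markers whose ranges are given above. Its relation to the muscle content was not tested.

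Some of these developmental genes followed Casr across animals, although the naming rule did not single them out and they were chosen after their values were seen. Pax9, a pharyngeal pouch factor, had r = 0.97 with Casr (permutation p = 1e-05, the smallest that 100000 permutations can give) and rho = 0.98, and r = 0.95 without controls 2 and 3. Its slope on Casr was called over all probes (adjusted p = 0.00874 in limma), beside 0.171% of all probes. Eya1 (r = 0.83) and Tbx1 (r = 0.80), which act in pouch development before the gland forms, did not pass in the same fit, and without controls 2 and 3 their r was 0.50 and 0.58. The median r of the list with Casr was 0.68 against 0.11 over all probes. The median r with Gcm2 was 0.52 against -0.06, and that with Pth was 0.30 against 0.19. Without the 2 animals farthest from the median of each gene, the list's median r was 0.51 with Casr, 0.22 with Gcm2 and 0.15 with Pth.

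The list of calcium and PTH pathway genes held 27, all on the array, of which 20 were tested. Between the groups 0 were called after adjustment and 1, Orai1, was higher without it, by 0.27 (SE 0.12, adjusted p = 0.385 in limma). Without adjustment 0 were lower, and of all probes 5.71% were higher and 7.01% lower. Orai1 is a plasma membrane calcium channel opened by store depletion. The median difference was -0.07. The count under 0.05 over both lists together was 4, beside 12.7% of all probes, and it was 2 without KI animal 1 or without KI animal 5. Trpv6, an epithelial calcium channel, was the next by unadjusted p and differed by -0.64 (SE 0.37).

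The 5 genes of both lists with the highest r with Pth were Men1 (0.85), Fgfr1 (0.83), Gnai2 (0.82), Stim1 (0.81) and Ap2s1 (0.79). Of all tested probes 1.54% had an r as high as Men1 and 6.27% as high as Ap2s1. Men1 encodes menin, a tumour suppressor of the parathyroid, Fgfr1 is a receptor for Fgf23, and Gnai2 and Ap2s1 take part in signalling and uptake of the calcium-sensing receptor. Without controls 6 and 4 their r was 0.37, 0.72, 0.035, 0.42 and -0.06. Fgfr1 and Gnai2 each have a second tested probe, which had r = -0.73 with Pth for Fgfr1 and r = 0.79 for Gnai2, so that Fgfr1 has no single direction. High r with Pth was not particular to these lists. The median r was 0.57 in the calcium list and 0.30 in the parathyroid list. It was 0.70 in the endothelial and 0.56 in the follicular list, and from -0.0054 to 0.38 in the lists of other cell types. Over all 20714 genes represented by their brightest probe, the 10 most like Pth had r from 0.92 to 0.95, and from 0.66 to 0.81 without controls 6 and 4. They were Gnas, which encodes the stimulatory G protein subunit, Rn45s, the ribosomal RNA precursor, Rplp1, a ribosomal protein, Tmem255b, Mmp15, Cyp4f6, 3 uncharacterised loci and a transcript without a gene symbol. The 5 most like Gcm2 were Dopey2 (r = 0.89), Ogt (0.89), Tspan6 (0.88), Ptges (0.88) and RGD1306091 (0.86), and without controls 2 and 3 these values were 0.80, 0.81, 0.74, 0.75 and 0.76.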

How the data were processed

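Thyroid RNA of 13 rats (6 KI-treated, 7 control) was labelled with Cy-3 and hybridised to one-colour Agilent arrays. The authors deposited scanner output in which each spot's fluorescence intensity had been background-subtracted by Agilent Feature Extraction (10.7.3.1, per the file headers) and not yet scaled across arrays. A second, deposited log2 table holds these arrays too, and its normalization is not given in the sources used here. Its medians per array ran from 6.83 to 6.95 and its values followed the scanner signal in rank (Spearman 0.976 to 0.993), and it served as an alternative only. Low intensity depends on that subtraction, so values of dim probes are less certain.

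Control and outlier-flagged spots were left out, spots of one probe averaged, and the 75th percentile of the averaged gene probes subtracted on the log2 scale. Tested were probes that 6 or more arrays measured well above background (25717 of 45598, 67 of them with a missing value) with limma 3.58.1 in R 4.3.3 (lmFit, eBayes, Benjamini-Hochberg over all tested probes, threshold 0.05). Further fits added as a covariate the Pth level, the Casr level or the sum of both after each was standardised. A random block for slide was not run for correlations, for which slide, scan session and replicate number were removed as fixed terms. Correlations used 100000 permutations in Python 3.11.15 with numpy 2.4.6, exact within groups. The limma fit, tested on simulated arrays with 200 of 25650 probes changed, called 1% of the probes changed by 0.5 log2 units, 70.5% of those changed by 1 and 94% of those changed by 2 (KI-treated minus control). The simulated noise was drawn independently for each probe, so these shares need not hold for measured arrays, where many probes vary together.

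The members and gene lists were chosen with earlier results of these data known. The genes named are every member probe, of the parathyroid and calcium lists the 5 with the highest r with Pth and the 5 with the smallest p, and the 10 genes most like Pth and 5 most like Gcm2. Other genes named were chosen after their values were seen, as said beside them, and some genes of the lists are not reported here. Alternatives were quantile normalization, normexp (offset 50), the deposited log2 values, other filters, slide, scan session or replicate number as a term, array weights, the methods' t-test and leaving out each animal. The percentile over all gene spots, leaving out the animals of lowest and highest Pth level together, and Spearman's rho over the 21 pairs, were added after seeing the data. No columns of other samples were used.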

Additional observations from a re-analysis of the deposited data

Results flagged for a closer look

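Of the 22 sets of values checked (11 probes in each of 2 groups), 1 held an animal far from the rest of its group. Vdr in control animal 2 was -2.24, against -1.37 in the nearest control, and this gap was 0.649 of the whole range of the 7 controls. Chance alone marks about 1 in 20 such groups. The same animal was the lowest of all 13 in Gcm2 and in both Gata3 probes without passing that limit there.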

How the results depend on the processing

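Over all tested probes, the 0 adjusted calls became 55 with array weights (none a member) and ran from 0 to 1 when single animals were left out, and the 3271 unadjusted calls became 5120 with scan session as a term, 2144 without the animals of lowest and highest Pth, and 2364 to 4598 when single animals were left out. The 3 member probes under 0.05 became 6 with slide and 7 with scan session as a term, and 1 without the animals of lowest and highest Pth (1 to 4 leaving out single animals). At equal Pth the 2 became 4 under quantile normalization, normexp with quantile, the deposited values and the replicate block, and 1 with the filter on all 13 arrays (0 to 4 leaving out single animals). The count was 6 with Casr instead as covariate, and 4 with the sum of the standardised Pth and Casr levels. The 4 genes of the other lists became 2 with the replicate block and 1 without the animals of lowest and highest Pth (2 to 4 leaving out single animals).

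Of the 6 relations with Pth, 2 passed after adjustment over the 6. This became 0 under quantile normalization, normexp with quantile, the deposited values, within either group, by Spearman's rho and without controls 6 and 4, and 1 with the percentile over gene spots (0 to 2 leaving out single animals, 0 without control 4 or control 6). Of 21 pairs, 3 passed after adjustment over the 21, which became 5 under quantile normalization, with slide or scan session as a term and without controls 6 and 4, 7 with the replicate block, 1 by Spearman's rho (Gcm2 with Gata3) and 0 within either group (2 to 4 leaving out single animals). The r of Pth with Trpc1 turned to -0.34 under quantile normalization, -0.62 under normexp with quantile, -0.0186 within the KI-treated group, -0.0046 without controls 6 and 4, and -0.86 for probe 3. The causes were not tested.

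Animals with the same replicate number did not deviate together (r from -0.11 to 0.07), so the numbers pair nothing. With the replicate block 2356 probes lay under 0.05 and the Gcm2 difference was 1.19. Gcm2 ran from 0.89 to 1.30 when single animals were left out, and has no value under the filter on all 13 arrays, which keeps 8 of 11 member probes. Gata3 probe 2 went to 0.15 and Trpc1 probe 3 to 0.02 under normexp with percentile scaling. Dim probes (Gcm2, Gata3 probe 2, Trpc1 probe 3) are limited by their signal over background.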

Other observations

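The 10 genes most like Casr across the 13 animals, among 20714 represented by their brightest probe, had r from 0.92 to 0.97, and from 0.82 to 0.96 without controls 2 and 3. They were chosen after their values were seen. After Pax9 they were Rnf217, Igdcc3, Mat1a, Jam3, Ica1, Slamf9, Dmrtc1b, Cab39l and Tfr2. Itpr1, the inositol trisphosphate receptor that releases calcium from internal stores, had r = 0.90 with Casr and r = 0.87 without controls 2 and 3.

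Chga, Kl, Pax1 and Eya1 also followed Gcm2, with r of 0.75, 0.73, 0.72 and 0.69. Without controls 2 and 3 these values were 0.49, 0.35, 0.42 and 0.25. The 4 genes were chosen after their values were seen, from a list in which 10 of 14 tested genes had a positive r with Gcm2. In limma the slope on Gcm2 was called for 0 of 25716 probes. Kl encodes klotho, the co-receptor through which Fgf23 acts on the parathyroid. Control animal 2 was the lowest of the 13 animals in each of these 4 genes and in the mean of the parathyroid list (0.20, against 0.61 in the next lowest animal).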
